A study of Mus musculus with 6 samples.

Results

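Inhibitory SMADs and antagonists of transforming growth factor beta (TGFb) and bone morphogenetic protein (BMP) signalling were followed together with a receptor-activated SMAD (Smad9) and a transcription factor that is a BMP target (Atoh8). The 9 genes were Smad6, Smad7, Smad9, Bambi, Nog, Grem1, Fst, Fstl3 and Atoh8. They were taken by gene name from a deposited table of 52636 mouse genes, each name matched a single row, and all 9 passed a filter of at least 1 CPM (reads scaled to a fixed library total) in at least 2 libraries, as did 18241 genes in all. The table came from bulk RNA sequencing of 6 libraries of esophageal organoids, which are small epithelial structures grown in matrigel from dissociated esophagus. All 6 came from mice labelled K5:Smo, with the genotype Krt5CreER:RosaSmoM2, collected 5 days after tamoxifen and cultured for 13 days. In this genotype a tamoxifen-activated Cre recombinase under the Krt5 promoter, active in basal keratinocytes, switches on SmoM2, an activated form of the Hedgehog signal transducer Smoothened, so every group carried SmoM2.

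The 3 groups held 2 libraries each and were treated for 72 h, with renewal every 24 h. The inhibitor group received A8301, labelled TGFb inhibitor, at 500 nM. In the ligand group TGFb1 (1 ng/ml) was combined with BMP4 (20 ng/ml). The ibuprofen group had the same ligands and doses plus 500 uM ibuprofen, a cyclooxygenase inhibitor. No group without both inhibitor and ligands was analysed here, so effects of adding the ligands and of leaving out the inhibitor cannot be told apart, nor can those of TGFb1 and BMP4. The labels give neither the age nor the number of the mice, nor whether replicates were separate cultures or animals, so each p-value measures only the spread between libraries, which may be technical.

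TGFb and BMP ligands bind paired serine/threonine kinase receptors that phosphorylate receptor-activated SMADs, Smad2 and Smad3 for TGFb and activin and Smad1, Smad5 and Smad9 for BMP, which then enter the nucleus with Smad4. The pathway is held back at several levels: secreted antagonists trap the ligands, decoy receptors block receptor pairing, and inhibitory SMADs act on the activated receptors. Several of these inhibitors are themselves known transcriptional targets of the pathway in other tissues, an arrangement known as negative feedback. In stratified epithelium TGFb is known for restraining keratinocyte growth, and BMP signalling for its part in squamous differentiation.

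Promoter sequences are shown because SMAD proteins bind DNA and these genes were studied under SMAD-activating ligands. RefSeq windows on GRCm38.p6, running from 250 bases before to 50 bases after a gene's start, were matched for 5 of the 9 genes: Smad6, Smad9, Grem1, Fstl3 and Atoh8. The windows were searched for GGCGCC, a GC-rich element known to bind Smad1 and Smad5, and for CAGAC, the SMAD box, on both strands. GGCGCC was present in 11.9% of the 32817 windows in the table and CAGAC in 49.6%. GGCGCC reads the same on both strands and shares no letters with CAGAC matches in these windows. The 8-base palindrome GTCTAGAC, in which a SMAD-box-like run faces its copy on the other strand, was searched only after the windows had been seen, and 0.213% of windows, 70 in number, hold it. The stretches below are printed 5′ to 3′ on the gene's strand, and the capitals mark these motifs. They lie at chr9:64022056-64022309 (minus strand) for Smad6, chr3:54755332-54755581 (plus strand) for Smad9 and chr2:113758649-113758898 (minus strand) for Grem1.
Smad6: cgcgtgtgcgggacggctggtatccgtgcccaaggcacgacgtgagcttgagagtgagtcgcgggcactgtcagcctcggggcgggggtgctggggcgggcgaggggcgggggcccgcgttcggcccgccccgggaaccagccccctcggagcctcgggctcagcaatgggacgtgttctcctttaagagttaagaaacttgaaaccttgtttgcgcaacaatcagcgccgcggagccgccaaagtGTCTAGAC
Smad9: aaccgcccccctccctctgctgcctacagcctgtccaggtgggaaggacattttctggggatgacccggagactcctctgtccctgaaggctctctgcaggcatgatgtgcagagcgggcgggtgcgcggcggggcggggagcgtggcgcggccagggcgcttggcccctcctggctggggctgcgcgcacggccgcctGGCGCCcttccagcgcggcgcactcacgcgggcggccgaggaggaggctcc
Grem1: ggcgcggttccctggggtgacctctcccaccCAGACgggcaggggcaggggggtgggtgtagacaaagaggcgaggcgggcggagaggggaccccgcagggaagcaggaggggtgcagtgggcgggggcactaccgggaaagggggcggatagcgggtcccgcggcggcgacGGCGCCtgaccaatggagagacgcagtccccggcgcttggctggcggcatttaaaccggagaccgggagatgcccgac
The Smad6 stretch ends in the palindrome, which begins at -4 and runs across the start to the last printed base. The Smad9 window held GGCGCC at -51. The Grem1 window held GGCGCC at -78 and CAGAC at -219, with a further CAGAC at 18 bases after the start, beyond the printed stretch. Fstl3 held CAGAC on the opposite strand at -161 and -14. The Atoh8 window held none of these letters. A match is a description of the letters and does not show that a SMAD bound there.

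Reads recovered from the deposited values came to between 6413873 and 7730582 per library, so that 1 read was worth 0.129 to 0.156 CPM. The labelled cell type, esophageal epithelial cells, was checked on 10 squamous epithelial markers, all of which were detected and together held 23857 to 32678 CPM in the 6 libraries. Of these 5 rose and 4 fell between the inhibitor and ligand groups, and 1 rose and 2 fell with ibuprofen added. Those that rose with ligands were Krt14 (log2 change 1.66), Epcam (1.11), Krt5 (0.86), Dsp (0.51) and Perp (0.48). Epcam was the marker that rose with ibuprofen added (1.89). The suprabasal keratin Krt4 measured 3298 and 2158 CPM with inhibitor, 1145 and 311 CPM with ligands and 2.90 and 1.25 CPM with ibuprofen. Krt13, its partner keratin, measured 9331 and 8073, then 3587 and 2759, then 634 and 1116 CPM. Krt4 and Krt13, the rising squamous markers and the muscle markers named below were picked after their values were seen. Markers of fibroblasts and stroma were present as well, with 10 of 10 detected, none at 0. Their summed level was 214 and 276 CPM in the inhibitor libraries, 2083 and 3260 CPM in the ligand libraries and 1547 and 1959 CPM in the ibuprofen libraries. The collagen genes Col1a1 (885 and 1289 CPM) and Col1a2 (632 and 952 CPM) made up most of the ligand sums. With inhibitor they measured 18.5 and 18.2 CPM, and 33.0 and 40.0 CPM. Both were picked after their values were seen. Of these stromal markers 9 rose and Fbln1 fell between the inhibitor and ligand groups, and 1 rose and 5 fell when ibuprofen was added. Over all genes tested 20.4% rose and 19.9% fell with ligands, and 10.7% rose and 9.02% fell with ibuprofen added. Summed markers of smooth and skeletal muscle were 152 and 222 CPM with inhibitor, 357 and 475 CPM with ligands and 325 and 432 CPM with ibuprofen. Of 5 muscle markers tested 3 rose with ligands, Acta2 (3.02), Acta1 (1.21) and Des (1.12), and none fell, while Acta2 and Myh4 fell with ibuprofen added. Summed markers of endothelium reached at most 11.3 CPM and of immune cells at most 67.4 CPM in any library. The part of stromal, muscle or differentiated epithelial cells in the results was not tested, and in bulk libraries fewer cells of a type and less RNA per cell cannot be told apart.

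The comparison of the ligand group with the inhibitor group asks how these genes differed between organoids given both ligands and those given the inhibitor. All 9 genes rose, by 1.04 (Fstl3) to 4.37 (Fst) on the scale of log2(CPM + 1), which understates the change of genes with low values. In each of the 9 genes both ligand libraries lay above both inhibitor libraries. Smad9, Bambi, Nog and Atoh8 did not reach 1 CPM in both inhibitor libraries and passed the filter only through the groups given ligands. Their direction against the inhibitor group was thus partly set by the filter. The median change of the 9 genes was 2.20, against -0.0032 over all genes tested. Among those genes 20.4% were called higher and 19.9% lower, 40.3% in all, by the same test, limma with Benjamini-Hochberg adjustment at 0.05. Both ligand libraries lay above both inhibitor libraries in 35.5% of genes and below them in 36.6%, so 72.2% did not overlap. The 9 genes and the lists below were chosen with earlier results of these data known. The contrasts with all genes, here and below, are therefore a description and no independent test.

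**Figure D1:**
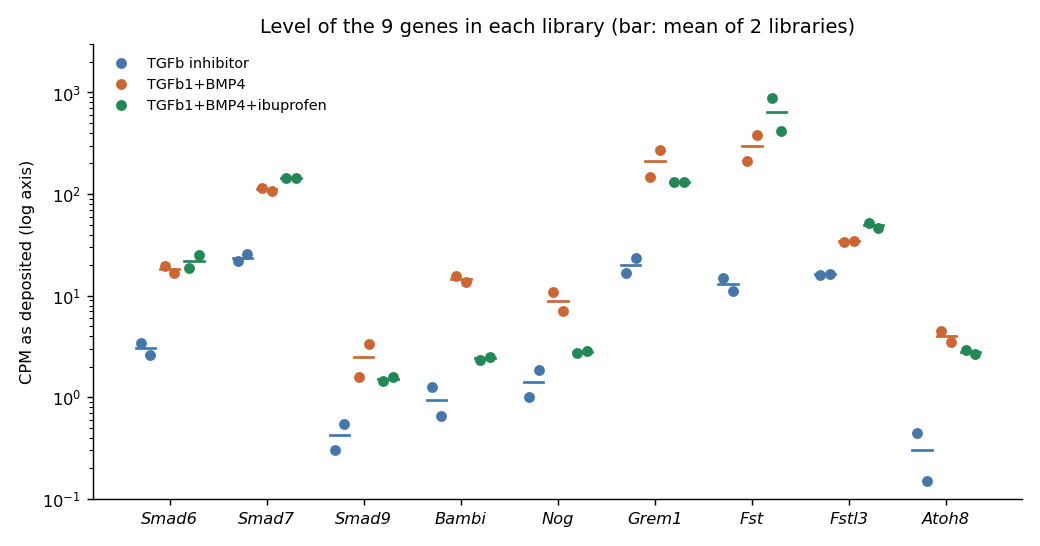
CPM of each of the 9 genes in the 6 libraries (points, logarithmic y axis in CPM), by treatment, with bars at the group means (n = 2). For every gene both ligand libraries sit above both inhibitor libraries. With ibuprofen Bambi, Nog, Grem1 and Atoh8 lie below the ligand libraries and Smad7, Fst and Fstl3 above them.

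Among the inhibitory SMADs, Smad7 was the more abundant per length of transcript. Smad7 blocks type I receptors of both branches and lies on chromosome 18 (75367529 to 75395935, plus strand, GRCm38). It measured 21.8 and 25.5 CPM in the inhibitor libraries and 114 and 108 CPM in the ligand libraries. Its libraries agreed closely within each group, and it rose by 2.20 on the log2 scale (SE 0.11, limma adjusted p = 3.9e-06). Smad6, which acts mainly on the BMP branch, lies on chromosome 9 (63953076 to 64022059, minus strand). It measured 3.45 and 2.6 CPM in the inhibitor libraries and 19.6 and 16.7 CPM in the ligand libraries. The increase was 2.26 (SE 0.21, limma adjusted p = 8.34e-05), beside that of Smad7.

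Smad9 and Atoh8 were at the low end of detection. Smad9, a BMP-branch SMAD known to be a weaker transcriptional activator than Smad1 and Smad5, lies on chromosome 3 (54755582 to 54801257, plus strand). It measured 0.30 and 0.55 CPM in the inhibitor libraries and 1.60 and 3.35 CPM in the ligand libraries, from 6 and 34 reads per group. The read ratio was 6.14, with a 95% interval of 2.55 to 17.9 that covers counting error only, and the log2 change was 1.23 (SE 0.29, limma adjusted p = 0.00935). Its call ended without ligand replicate 2 (0.88, limma adjusted p = 0.0564) or without inhibitor replicate 1 (1.11, limma adjusted p = 0.0681). Atoh8, a basic helix-loop-helix transcription factor known as a BMP target in endothelium and liver, lies on chromosome 6 (72206177 to 72235577, minus strand). It measured 0.45 and 0.15 CPM with inhibitor and 4.45 and 3.50 CPM with ligands, from 4 and 55 reads. All of its inhibitor values were far below its ligand values, and it rose by 1.93 (SE 0.25, limma adjusted p = 0.000456). For these low genes the size of the change depended on the added constant: with 0.25 in place of 1 the changes were 1.96 for Smad9 and 2.98 for Atoh8, and with voom on recovered reads they were 2.42 and 3.73. Against the inhibitor group with ibuprofen present, where the change was 0.87 for Smad9, 0.88 for Bambi, 0.72 for Nog and 1.60 for Atoh8, voom gave 1.89, 1.45, 1.11 and 3.31.

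Bambi encodes a pseudoreceptor, related to type I receptors but without a kinase domain, and lies on chromosome 18 (3507923 to 3516404, plus strand). It measured 1.25 and 0.65 CPM in the inhibitor libraries and 15.5 and 13.5 CPM in the ligand libraries. Ligand and inhibitor libraries lay far apart, with a log2 change of 3.00 (SE 0.24, limma adjusted p = 3.99e-05) and a read ratio of 15.6 (95% counting interval 9.06 to 29.0).

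The secreted antagonists spanned the smallest and the largest of the 9 changes. Nog encodes noggin, which binds BMP ligands, and is a gene of 1 exon on chromosome 11 (89300638 to 89302332, minus strand). It measured 1.00 and 1.85 CPM with inhibitor and 10.9 and 7.0 CPM with ligands, an increase of 2.03 (SE 0.29, limma adjusted p = 0.000801). Grem1, or gremlin 1, another BMP antagonist and one known from fibroblasts of the gut wall, lies on chromosome 2 (113746164 to 113758646, minus strand). It measured 16.8 and 23.4 CPM with inhibitor and 148 and 273 CPM with ligands. Its ligand replicate 2 was well above replicate 1, and it rose by 3.28 (SE 0.25, limma adjusted p = 2.89e-05).

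Fst, follistatin, which binds activins and with lower affinity BMPs, showed the largest of the 9 changes. It lies on chromosome 13 (114452290 to 114458951, minus strand) and measured 14.8 and 11.1 CPM with inhibitor and 210 and 382 CPM with ligands. The change was 4.37 (SE 0.35, limma adjusted p = 3.79e-05). Summed stromal markers, Grem1 and Fst were each higher in ligand replicate 2 than in ligand replicate 1, as were Smad9 (1.60 and 3.35 CPM) and, by little, Fstl3, whereas Smad6, Smad7, Bambi, Nog and Atoh8 were lower there. Fstl3, a follistatin-like activin and myostatin binder, lies on chromosome 10 (79777272 to 79782630, plus strand). It measured 16.1 and 16.4 CPM with inhibitor and 34.1 and 34.5 CPM with ligands. Replicates nearly coincided, and the increase of 1.04 (SE 0.11, limma adjusted p = 0.000192) was the smallest of the 9.

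Fst and Fstl3 share exon sequence with genes on the opposite strand, and the strand setting of the counting is not given in the sources used here, so reads in the shared stretches cannot be told apart. Gm47040 overlaps 115 of 4589 exon bases of Fst, and its own CPM was 0.85 and 0.30 with inhibitor, 2.05 and 2.05 with ligands and 13.4 and 6.55 with ibuprofen. Prss57, a serine protease gene, overlaps 1157 of 2445 exon bases of Fstl3. Its CPM was 10.4 and 11.9 with inhibitor, 23.9 and 27.4 with ligands and 37.8 and 36.5 with ibuprofen, moving in the same direction as Fstl3 in each comparison (1.13, limma adjusted p = 0.000297 with ligands). How much of each gene's count came from its partner was not tested.

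**Figure D2:**
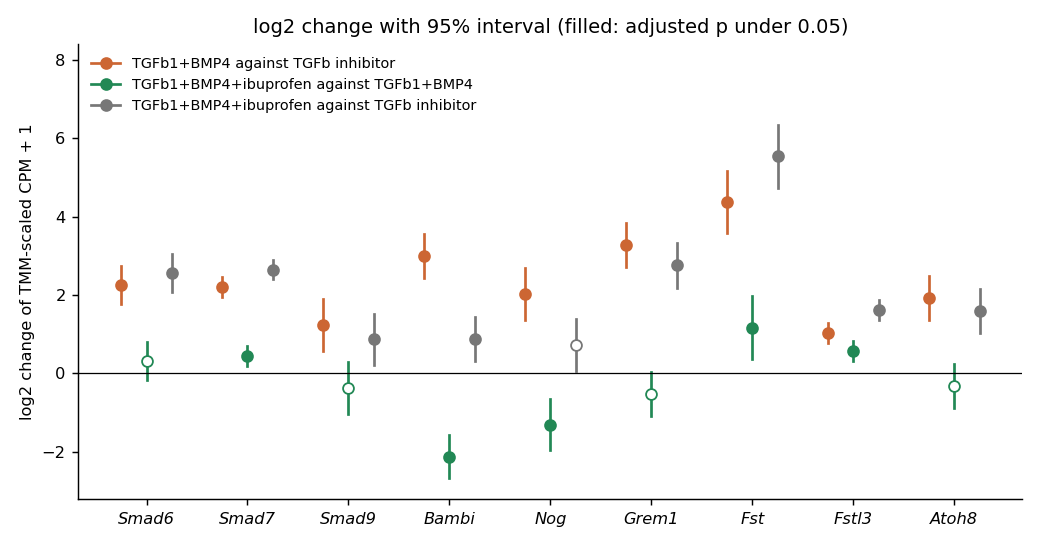
Log2 change of each gene on the log2(CPM + 1) scale in the 3 comparisons, with 95% confidence intervals from limma and filled points for an adjusted p under 0.05. All 9 ligand changes are above 0, and with ibuprofen added to the ligands Bambi (-2.12) and Nog (-1.30) are below 0 and Fst (1.17), Fstl3 (0.57) and Smad7 (0.45) above it.

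Adding ibuprofen to the ligands split the group. Bambi and Nog fell, Fst, Fstl3 and Smad7 rose, and Smad6, Smad9, Grem1 and Atoh8 did not pass the test, so that 5 of 9 genes were called, against 19.8% of all genes tested, 10.7% higher and 9.02% lower. The median change of the 9 genes was -0.33, against -0.0082 over all genes. Over all genes 54.3% of calls were in the higher direction, and 43.2% without TMM scaling factors, which moved the median change of all genes from -0.0082 to -0.0707. The ibuprofen and ligand libraries did not overlap in 7 of the 9 genes, 3 higher and 4 lower, against 58.8% of all genes, 24.2% higher and 34.5% lower. This comparison shares its ligand libraries with the one above.

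Bambi showed the largest fall. Its ibuprofen libraries held 2.35 and 2.5 CPM, against 15.5 and 13.5 CPM with ligands alone, and lay above both inhibitor libraries. The change was -2.12 (SE 0.24, limma adjusted p = 0.000762), and the read ratio was 0.166 (95% counting interval 0.110 to 0.242). The fall of Bambi passed the threshold in all 14 alternative settings, between -2.48 and -2.0. Nog held 2.75 and 2.85 CPM with ibuprofen, below both ligand libraries. It fell by 1.30 on the log2 scale (SE 0.29, limma adjusted p = 0.0153). The call for Nog ended without ibuprofen replicate 1 (limma adjusted p = 0.0798), ibuprofen replicate 2 (0.0567) or ligand replicate 1 (0.0795), and with no filter on low values (0.0577).

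The activin binders moved the other way. Fst held 884 and 415 CPM with ibuprofen, the first of them far above every other library and the second only slightly above the higher ligand library. Summed stromal markers were 1547 CPM in ibuprofen replicate 1, where Fst was highest, and 1959 CPM in ibuprofen replicate 2. Any link between them and Fst was not tested. The change was 1.17 (SE 0.35, limma adjusted p = 0.0484), close to the threshold, and the call ended in 9 of 14 alternative settings. Without ibuprofen replicate 1 it was 0.63 (limma adjusted p = 0.251), without ligand replicate 1 it was 0.76 (limma adjusted p = 0.194), and without either inhibitor replicate the adjusted p was 0.0651 or 0.0636. Fstl3 held 51.4 and 46.8 CPM, above both ligand libraries, and rose by 0.57 (SE 0.11, limma adjusted p = 0.00936). Its call ended only without ibuprofen replicate 1 (0.51, limma adjusted p = 0.0719) among the 14 settings.

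Of the inhibitory SMADs, Smad7 passed the test and Smad6 did not. Smad7 held 145 and 144 CPM with ibuprofen, above both ligand libraries, a change of 0.45 (SE 0.11, limma adjusted p = 0.0224). The call ended without ibuprofen replicate 1 (limma adjusted p = 0.0977), ibuprofen replicate 2 (0.0835) or ligand replicate 2 (0.107), and with no filter on low values (0.057). Smad6 held 18.6 and 24.9 CPM, on both sides of a ligand library, and its change of 0.31 (95% interval -0.17 to 0.79, limma adjusted p = 0.352) did not pass the test.

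Grem1, Smad9 and Atoh8 had lower means with ibuprofen without passing the test. Grem1 held 132 and 133 CPM, both below the ligand libraries, and its change was -0.53 (95% interval -1.09 to 0.03, limma adjusted p = 0.171). With the replicate number as a block Grem1 passed the test (-0.53, limma adjusted p = 0.0406), and without ligand replicate 1 it did so as well (-0.94, limma adjusted p = 0.0103), whereas without ligand replicate 2 the change was -0.12. Smad9 held 1.45 and 1.60 CPM, which reached its lower ligand library, with a change of -0.37 (95% interval -1.02 to 0.29, limma adjusted p = 0.422). Atoh8 held 2.90 and 2.70 CPM, below both ligand libraries, with a change of -0.33 (95% interval -0.89 to 0.24, limma adjusted p = 0.4).

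**Figure D3:**
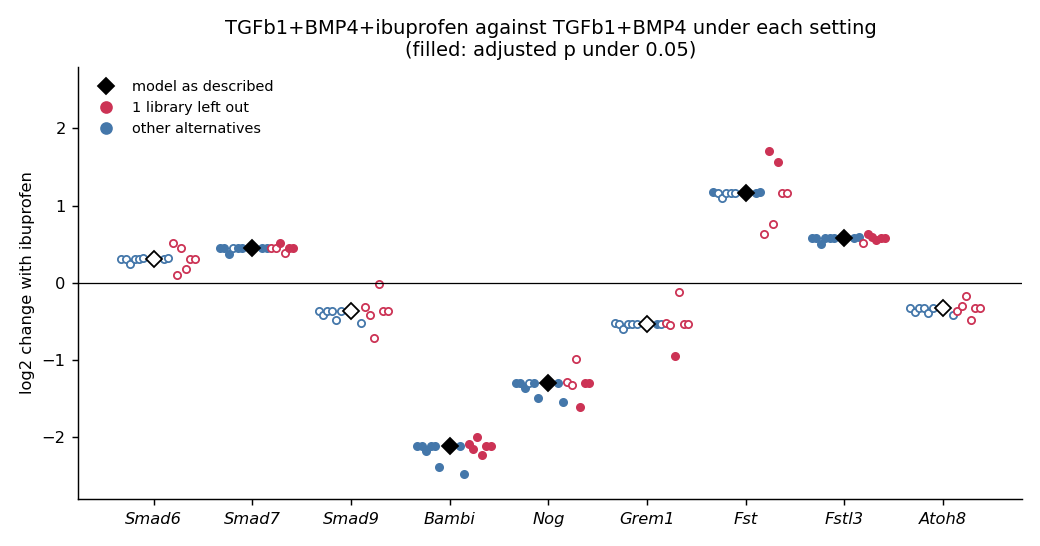
Log2 change of each gene between the ibuprofen and ligand groups as described (diamonds), with 1 library left out (red) and under other alternatives (blue), filled where the adjusted p was under 0.05. Every Bambi point lies between -2.48 and -2.0 and is filled, while the Fst points run from 0.63 to 1.70 and many are open.

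Set against the inhibitor group, organoids given ligands with ibuprofen still had higher levels of 8 of the 9 genes, against 20.8% of all genes called higher and 19.9% lower, 40.7% in all. Both ibuprofen libraries lay above both inhibitor libraries in all 9 genes, as they did for 30.9% of all genes. They lay below them for 41.5%, so that 72.4% did not overlap. Here too the direction of Smad9, Bambi, Nog and Atoh8 was partly set by the filter. Fst again had the largest change, 5.53 (SE 0.35, limma adjusted p = 1.25e-05), followed by Grem1 with 2.75 (SE 0.25, limma adjusted p = 6.76e-05), Smad7 with 2.65 (SE 0.11, limma adjusted p = 1.5e-06) and Smad6 with 2.57 (SE 0.21, limma adjusted p = 4.36e-05). Fstl3 rose by 1.61 (limma adjusted p = 2.03e-05) and Atoh8 by 1.60 (limma adjusted p = 0.00119). The order after Fst depended on the scale. By read ratio Atoh8 (10.4, from 37 and 4 reads) lay above Smad6 (7.24), Grem1 (6.54) and Smad7 (6.11).

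Nog, Smad9 and Bambi had the smallest of these differences on the log2(CPM + 1) scale. By read ratio Smad9 (3.76, from 20 and 6 reads) lay above Fstl3 (3.02), so the place of Smad9 depended on the scale. Bambi stood at 0.88 above the inhibitor group (SE 0.24, limma adjusted p = 0.0196), against 3.00 with ligands alone. Its call ended without inhibitor replicate 2 (0.66, limma adjusted p = 0.126), without either ibuprofen replicate (limma adjusted p = 0.0589 and 0.0756) and with no filter (0.0534). Nog stood at 0.72 (95% interval 0.07 to 1.38, limma adjusted p = 0.0763) and did not pass the test. Smad9 stood at 0.87 (limma adjusted p = 0.0403), a call that ended in 7 of 13 settings, with a change of 0.74 (limma adjusted p = 0.192) without inhibitor replicate 1. These values and those of the ligand comparison use the same inhibitor libraries, and are set side by side only. In the authors' deposited table the log2 fold changes were above 0 for all 9 genes in both contrasts, from 1.08 (Fstl3) to 4.47 (Fst) for ligands and from 1.11 (Nog) to 5.64 (Fst) for ligands with ibuprofen.

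Per kilobase of merged exon the order of the genes differed by treatment. In the inhibitor group Fstl3 was the highest at 6.66 CPM per kb (6.60 to 6.72 in its libraries), followed by Smad7 at 5.23 and Grem1 at 4.86, whose libraries overlapped. Fst followed at 2.83, then Smad6 at 0.943 and Nog at 0.840, overlapping each other, and Bambi, Atoh8 and Smad9 lay between 0.079 and 0.187 with overlapping neighbours. In the ligand group Fst at 64.5 and Grem1 at 50.8 CPM per kb led with overlapping libraries. Smad7 followed at 24.6, Fstl3 at 14.0, Smad6 at 5.67 and Nog at 5.28, of which the last pair overlapped, then Bambi at 2.86, Atoh8 at 1.59 and Smad9 at 0.461. With ibuprofen Fst stood alone at 142 CPM per kb (90.4 to 193), Smad7 and Grem1 overlapped at 32.0 and 31.9, and Fstl3 was at 20.1. Smad6 at 6.80, Nog at 1.65 and Atoh8 at 1.12 came next, and Bambi at 0.478 had moved below Atoh8, above Smad9 at 0.284.

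Other genes of the pathway were taken from lists, whose counts with ligands stand beside 20.4% of all genes called higher and 19.9% lower. Of the 5 receptor-activated and common SMADs other than Smad9, which rose, none rose and Smad1 fell by 0.44 on the log2 scale (limma adjusted p = 0.0104), with a list median of 0.0001. All 4 Id genes, BMP targets that block basic helix-loop-helix factors, rose, with Id2 at 3.17 and Id4 at 3.57. Of 14 other secreted antagonists 9 could be tested, and 5 rose and none fell, among them Fstl1 (3.98), a follistatin-like matrix protein, the BMP modulator Bmper (2.84) and Nbl1 (1.30). Of 12 other intracellular regulators 5 rose and 3 fell. Pmepa1, which sequesters receptor-activated SMADs, rose by 5.37, the SMAD co-repressor gene Skil by 1.76, and the ubiquitin ligase genes Smurf1 and Smurf2 by 1.30 and 0.58.

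Ligand and receptor genes moved in both directions. Of 10 ligand genes tested 7 rose and 1 fell with the ligands, among them Tgfb2 (4.26), the activin subunit genes Inhbb (3.48) and Inhba (3.13), Tgfb3 (3.01) and Tgfb1 (1.49). Inhba was added to these after its values were seen. Of 15 receptors and co-receptors 7 rose and 4 fell, against 20.4% and 19.9% of all genes, with Tgfbr1 at 1.52, the BMP type I receptor genes Acvr1 and Bmpr1a at 1.02 and 0.76, and the co-receptor endoglin, Eng, at 2.40. The receptors that fell were Tgfbr3 (-2.11), Rgma (-1.88), Acvr1b (-0.34) and Acvr2a (-0.31), named after their values were seen.

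With ibuprofen added, 10.7% of all genes were called higher and 9.02% lower, 19.8% in all. In the lists, 3 of 4 Id genes fell, namely Id4 (-2.49), Id3 (-1.14) and Id2 (-1.29), while Id1 did not pass (-0.28, limma adjusted p = 0.173). Of the other secreted antagonists none rose and 2 of 9 fell: Fstl1 (-1.33) and Sostdc1 (-3.48), a BMP and Wnt antagonist also called ectodin. Ligand genes fell in 3 of 10 cases, Inhbb (-2.17), Tgfb2 (-1.75) and Bmp7 (-1.54), and none rose. The other intracellular regulators rose in 5 of 12 cases, among them the co-repressor gene Tgif1 (1.13), Smurf1 (0.61) and the ubiquitin ligase gene Nedd4l (0.58), and Tob2 fell (-0.43). Smad2 rose by 0.35 (limma adjusted p = 0.0384), the only call among the 5 SMADs of that list. Of 15 receptors Acvr1 rose (0.41) and Neo1 (-0.62) and Bmpr1b (-0.95) fell, a share of calls near that of all genes.

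Between the ibuprofen and inhibitor groups, where 20.8% of all genes were called higher and 19.9% lower, all 4 Id genes were higher, by 0.90 (Id1) to 1.88 (Id2). Other secreted antagonists rose in 5 of 9 cases, with Sostdc1 lower (-2.52), and other intracellular regulators rose in 6 and fell in 2 of 12 cases, led by Pmepa1 (5.73). Ligand genes rose in 7 and fell in 1 of 10 cases, with Inhba at 3.68 and Bmp7 at -2.50. Receptors rose in 5 and fell in 4 of 15 cases, and among the 5 SMADs Smad2 (0.52) and Smad3 (0.53) rose and Smad1 (-0.55) fell.

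**Figure D4:**
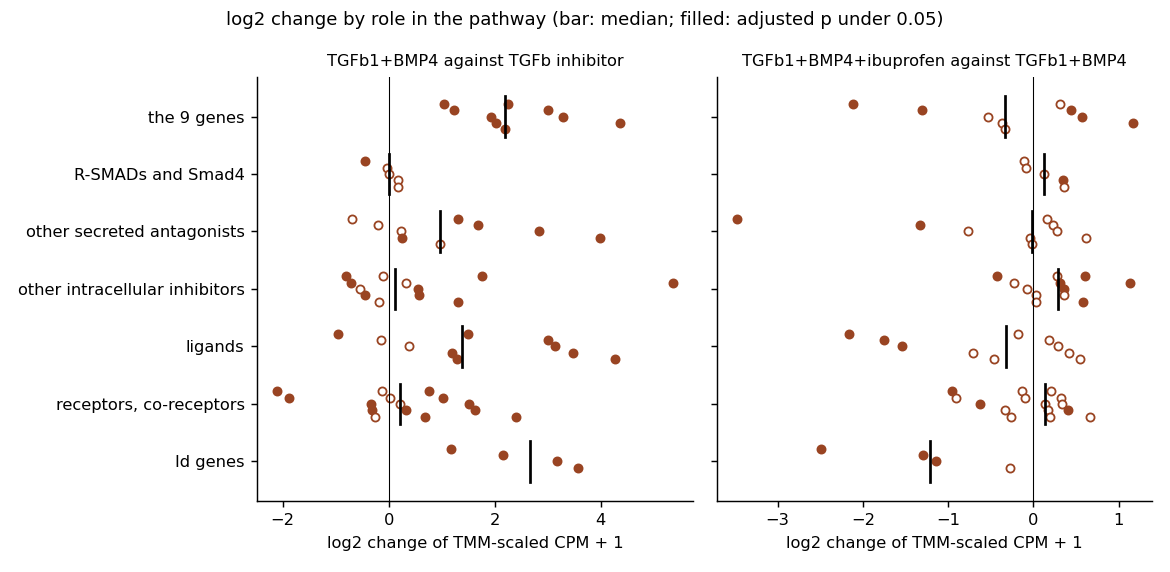
Log2 change of the 9 genes and of each tested gene in the pathway lists, by list (points), for the ligand and the ibuprofen comparison, with bars at list medians. With ligands the medians are 2.20 for the 9 genes and 2.67 for the Id genes, against 0.0001 for the receptor-activated and common SMADs without Smad9, and with ibuprofen the Id median is -1.22.

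The genes most like each of the 9 across the 6 libraries were found among 10699 candidates. Likeness was the root-mean-square difference of centred log2(CPM + 1) values, given here as a description. This scale compresses changes of genes with low values, so for them a small distance need not mean a like ratio. Bambi was closest to Fxyd4 (0.185) and Fam198b (0.219), both of which had low inhibitor and ibuprofen means around a high ligand mean. Fxyd4 averaged 1.15, 14.7 and 2.12 CPM in the inhibitor, ligand and ibuprofen groups. Nog was closest to Msi1 and Tmem64 (both 0.149). Grem1 was closest to the fibrillar collagen gene Col5a1 (0.127) and to Pdgfrb (0.153), the latter a member of the stromal marker list above.

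Smad6 was closest to Slc17a9 (0.148) and Osbpl3 (0.173), and Smad7 to Maged2 (0.106) and Phldb1 (0.118). Fstl3 was closest to Tmeff1 (0.069) and to the endothelin gene Edn1 (0.073), Atoh8 to Snn (0.070) and Thrb (0.085), and Smad9 to Mmp19 (0.113) and Sgcb (0.123). Snn averaged 7.57 CPM with inhibitor and 31.4 CPM with ligands, whereas Atoh8 averaged 0.30 and 3.97 CPM. Sgcb averaged 12.2 and 26.9 CPM in these groups, and Smad9 0.425 and 2.47 CPM, so the ratios of these pairs were unlike. Fst had no close neighbour, the nearest being Tll1 (0.489), which encodes a protease of the BMP1 family, and the chemokine gene Cxcl3 (0.512). Among the 9 genes themselves the closest pair was Smad6 and Smad7 (0.204).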

How the data were processed

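RNA was measured in 6 organoid libraries. Per the submitters' processing notes, STAR 2.5.3a, HTSeq, Cell Ranger 3.1.0 and edgeR were named with the builds GRCm38 and mm10, without roles. Per the labels' protocols, an Ovation Solo library was prepared from each RNA for NovaSeq sequencing. The authors deposited a signal scaled to 20010331 to 20013923 per library and rounded up, the CPM derived from it, and their log2 fold changes against the inhibitor group. Since the deposited values are not raw counts, planned count tests were not run. Reads behind each value were recovered by inverting the scaling and served for depth, read ratios and voom only; 99.8% to 99.9% of nonzero values equalled exactly a whole number of reads times the library's step, rounded up.

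CPM values were scaled by TMM, turned into log2(CPM + 1), filtered at 1 CPM in 2 libraries and fitted with limma 3.58.1 (R 4.3.3) in a single model of 3 groups with 3 residual degrees of freedom. Tests were two-sided, with Benjamini-Hochberg adjustment over 18241 genes and a threshold of 0.05. The fit was tested on simulated data, in which only genes with more reads than Smad9, Atoh8, Bambi or Nog were given a change. It therefore does not cover changes at the depth of these genes. All 9 genes are named in every comparison, from each list the up to 4 genes with the smallest adjusted p, and as likenesses the 2 nearest genes with a mean of at least 5 CPM. A named value that this rule gives is not reported here. The members and lists were chosen with earlier results of these data known.

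Libraries of equal replicate number deviated together to a limited degree, with correlations of 0.19, 0.174 and 0.258 over 3 pairs of groups. The labels state no pairing, and the main model held none. A model with the replicate number as a block was run as an alternative. Gene positions came from GENCODE on GRCm38. Intervals on read ratios cover counting error only. Other alternatives changed the scaling, the filter, the added constant and the libraries used.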

Additional observations from a re-analysis of the deposited data

How the results depend on the processing

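No change of any of the 9 genes reversed direction under an alternative. For several alternatives this was fixed in advance, because they leave the difference between group means as it was and alter only its error and adjusted p. These were the changed filters, the fit of only the compared groups, the replicate block and the loss of a library from the group not compared. Of 372 gene values under alternatives 339 kept their direction and side of the threshold, 31 lost a call and 2 gained one. With the replicate block, 9, 6 and 8 of the 9 genes were called in the 3 comparisons and 7964, 4341 and 8016 genes in all. Grem1 with ibuprofen (-0.53, limma adjusted p = 0.0406) was the only one of the 9 whose call the block changed. With no filter on low values, 2 of the 9 genes (main 5) and 2354 genes in all (main 3603) were called with ibuprofen. Leaving out each library in turn gave 8 to 9 of the 9 genes and 4717 to 7326 genes in all with ligands (main 7351), 1 to 4 and 1644 to 2947 with ibuprofen added, and 6 to 8 and 4712 to 7543 between the ibuprofen and inhibitor groups (main 7419). The 1 gene called without ibuprofen replicate 1 was Bambi, and 3 were called without ibuprofen replicate 2. The count over all genes fell by more than 1.5 times without inhibitor replicate 1 (4717 and 4712), inhibitor replicate 2 (4815 and 4928), ibuprofen replicate 1 (1644) and ligand replicate 2 (2282). These fits rest on fewer libraries, and the lone library of a group is assumed to vary like the others. A filter of 5 CPM drops Smad9 and Atoh8. The edgeR and DESeq2 tests that were planned were not run, because the deposited values, once rounded up, are not themselves whole multiples of a step, so reads follow only if the rounding is assumed, and voom on the recovered reads was chosen after seeing the data. Depth limits Smad9 and Atoh8 most, with 6 and 4 reads in the inhibitor group.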
